A study of Mus musculus with 7 samples.

Results

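The potassium channel genes examined here are those whose symbol on the array joins Kcn, a letter code for the subunit family and a number, which takes in the pore-forming subunits of potassium channels and their named auxiliary subunits. The rule uses names and no measured value. It found 92 genes, measured by 130 of the 39429 probes of the array. Of these, 40 genes had a probe that was well above background in 3 or more of the 7 mice and were tested among 16577 genes in all. The RNA came from the quadriceps of 3-month-old C57BL/6 mice, an age before the motor dysfunction of this line, and was hybridized to single-dye Agilent mouse arrays, 1 array per mouse. There were 4 arrays labelled WT and 3 labelled AR113Q, the latter from knock-in mice whose humanized androgen receptor carries an expanded CAG repeat, a model of spinal and bulbar muscular atrophy (SBMA). The repeat is in the endogenous receptor locus, so the mutant receptor is not restricted to muscle. The labels call the controls WT, whereas the study's text describes controls that carry the humanized receptor with a short repeat, so which of these the controls were cannot be told apart here. The comparison addresses which channel transcripts differ in SBMA muscle before weakness is seen.

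Potassium channels let potassium leave or enter the cell along its gradient. In a skeletal muscle fiber, inward rectifiers (Kcnj genes) hold the resting potential and clear potassium from the transverse tubules, voltage-gated channels (Kcna, Kcnb, Kcnc, Kcnd, Kcnh and Kcnq genes) repolarize the membrane after the action potential that triggers contraction, and ATP-sensitive channels close when ATP is plentiful. Calcium-activated channels (Kcnma and Kcnn genes) follow the calcium released during contraction, and SK channels are known for their rise in denervated muscle. Modifier subunits (Kcnf, Kcng, Kcns and Kcnv genes) form no channel of their own but alter the channels they join, and auxiliary subunits (Kcnab, Kcne, Kcnip and Kcnmb genes) change the gating or the surface level of the pore subunits.

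Values are log2 intensities, quantile normalized across the arrays. Intensities of different probes depend on the probe, so levels were compared between mice and not between genes. A gene was called when limma's adjusted p over all 16577 genes was at most 0.05 and the absolute log2 fold change, AR113Q minus WT, was at least 1. Over all genes the log2 intensities of 2 arrays of the same genotype correlated at 0.969 to 0.987 and those of different genotypes at 0.908 to 0.943. Well above background were 47.6% to 55.8% of all probes per array. The arrays lay on 5 slides, and only slide 2, with WT replicate 2 and AR113Q replicate 1, held both genotypes, so slide and genotype are largely confounded. The skeletal muscle markers Acta1, Ckm, Mb, Pvalb, Myh1, Myh2, Myh4 and Myh7 were all above background, and 0 of 8 were called. Ckm was at -0.80 ± 0.19 (SE, limma adjusted p = 0.0102), without overlap and under the fold threshold. The standard errors of Myh7 (2.35) and Myh2 (1.22) were wider than that threshold.

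Of the 40 potassium channel genes tested, 10 were lower in AR113Q muscle and 3 were higher. Across all genes tested, 13.1% were called lower and 11.2% higher. These counts, for channel genes and for all genes, were smaller with normexp background correction and with the authors' normalized values, as given in the last section. Among the channel genes, 20 were well above background on all 7 arrays, and 6 of these were lower and 1 was higher, against 11.4% and 10% of the 13718 genes with that detection. The median log2 fold change of the 40 genes was -0.19, and it was -0.01 over all genes tested. The values of the genotypes did not overlap for 17 of the 40 genes, against 49.3% of all genes. Replicates of the channel genes were more scattered than those of most genes: their median SD was 0.40 in WT and 0.50 in AR113Q, compared with 0.21 and 0.31 over all genes. The filter keeps a gene that is detected in one genotype and not in the other, so the counts over all 40 genes include some that could pass only through the brighter genotype.

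**Figure D1:**
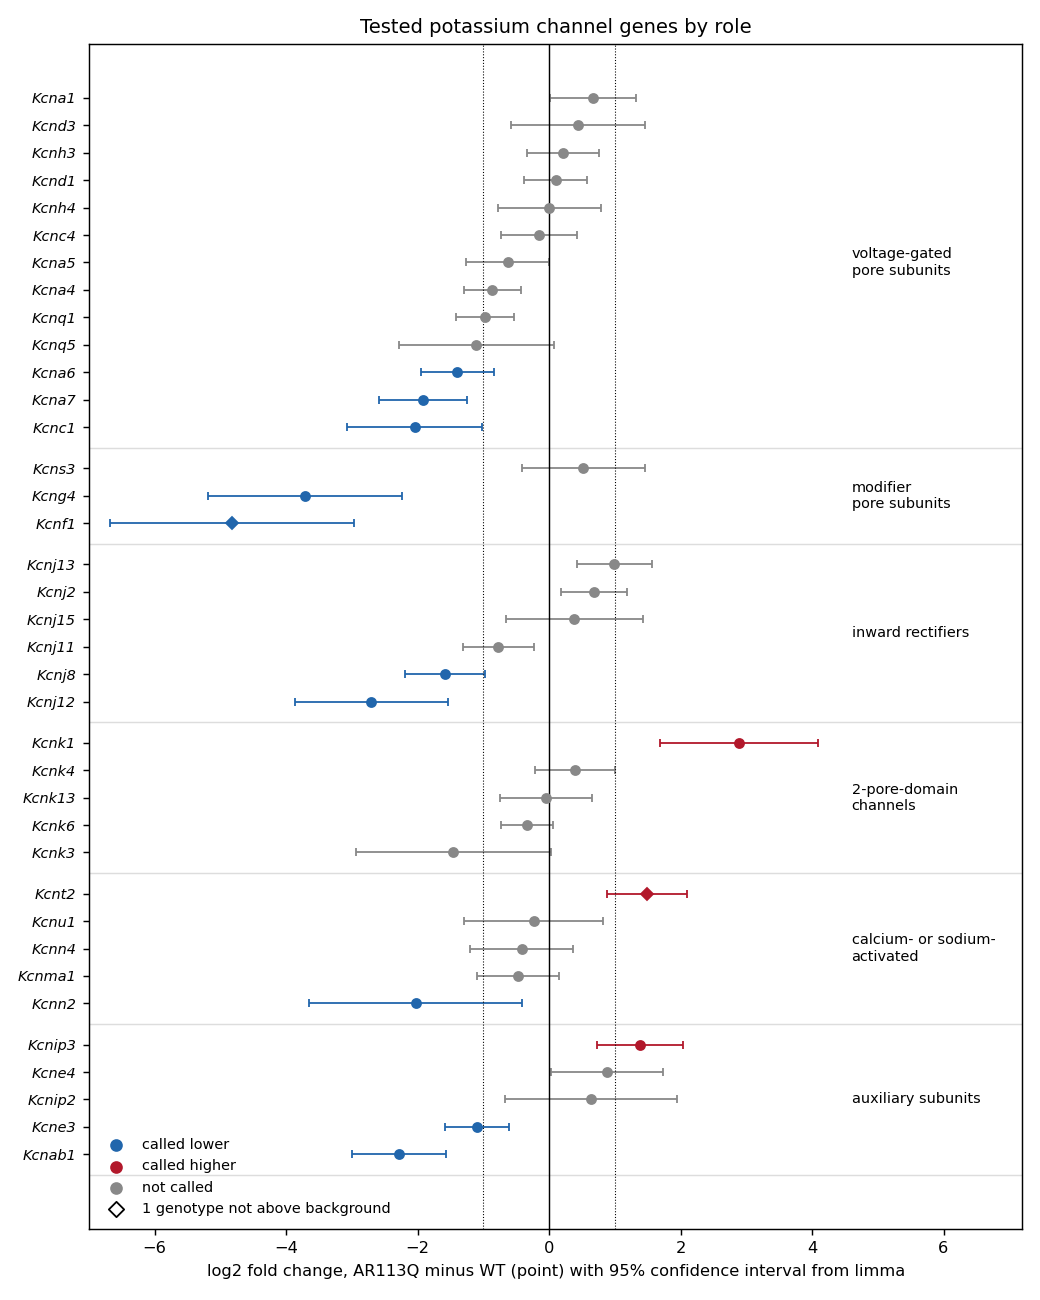
Log2 fold change of 37 of the 40 tested potassium channel genes (AR113Q minus WT, 3 against 4 arrays), with the 95% confidence interval from limma, grouped by role. Blue points are called lower, red points called higher and grey points not called; diamonds mark Kcnf1 and Kcnt2, which were detected in 1 genotype only, and dotted lines mark the fold threshold. The 10 lower genes come from 5 of the 6 roles; Kcnf1 and Kcnt2 are drawn at their fitted values, although only a bound can be given for them.

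Detection differed by role. Of the 52 genes that were not tested, 36 were detected on 0 of the 7 arrays, 9 on 1 array and 7 on 2 arrays. Voltage-gated subunits were tested for 16 of 30 genes, inward rectifiers for 6 of 15, 2-pore-domain channels for 5 of 14, calcium- or sodium-activated subunits for 5 of 8, auxiliary subunits for 5 of 15 and modifier subunits for 3 of 10. Genes known from skeletal muscle or its vessels made up a list of 24, of which 18 were tested. Of those 18, 7 were lower and 0 higher, against 13.1% and 11.2% of all genes, with a median log2 fold change of -0.92. The list was written with earlier results of these arrays known and is not independent evidence of a direction. Its 6 genes without a test were Kcnab2, Kcnh1 and Kcnn1, detected on 0 arrays, Kcnmb1, detected on 1 array, and Kcnk5 and Kcnn3, detected on 2.

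**Figure D2:**
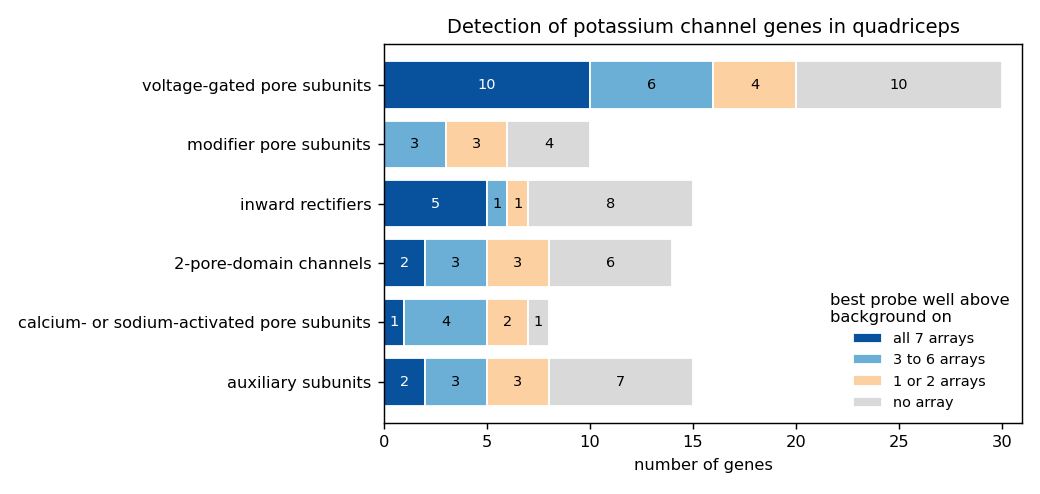
Number of potassium channel genes in each role (horizontal axis) by how many of the 7 arrays showed their best probe well above background. Genes detected on 3 or more arrays were tested; 36 of the 92 genes were detected on none.

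Promoter sequence was read for the channel genes. RefSeq promoter windows on GRCm38.p6 were matched by symbol for 67 of the 92 genes, and 12 of the 13 called genes had at least 1 window, all but Kcnn2. The 250 bases before each start were searched on both strands for CAGCTG, an E-box of the kind that myogenic factors bind, for AGAACA, which reads TGTTCT on the other strand, the half-site of androgen and glucocorticoid receptor elements, and for TATAAA, which reads TTTATA on the other strand, the TATA box. The E-box was found in 1 of 12 windows of the genes called lower (Kcng4), in 1 of 5 windows of those called higher (Kcnip3), in 22.8% of 92 windows of all channel genes and in 13.0% of 32851 windows of all genes. The half-site was found in 1 of the 12 windows (Kcnab1) and in 0 of the 5, against 14.1% of the channel gene windows and 16.1% of all windows. The TATA box was in 0 of these 17 windows, in 3.26% of the channel gene windows and in 12.4% of all windows. A match is a description of the letters and not a binding site. The windows with a match are given here with the match in capitals, each read 5′ to 3′ along the strand of its gene: Kcng4 (chr8:119635681-119635930, minus strand), the second of 3 Kcnab1 windows (chr3:65108764-65109013, plus strand) and the first of 3 Kcnip3 windows (chr2:127522095-127522344, minus strand). Those of Kcna7 (chr7:45405710-45405959, plus strand) and Kcnj12 (chr11:61065554-61065803, plus strand) follow, without a match, because the probes that stand for these genes were called under every alternative with a test except slide as a fixed effect. A second Kcna7 probe was not called.
Kcng4: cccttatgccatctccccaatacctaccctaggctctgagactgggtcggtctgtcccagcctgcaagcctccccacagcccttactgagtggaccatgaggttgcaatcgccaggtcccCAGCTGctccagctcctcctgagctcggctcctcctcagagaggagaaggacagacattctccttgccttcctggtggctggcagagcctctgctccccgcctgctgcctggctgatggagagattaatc
Kcnab1: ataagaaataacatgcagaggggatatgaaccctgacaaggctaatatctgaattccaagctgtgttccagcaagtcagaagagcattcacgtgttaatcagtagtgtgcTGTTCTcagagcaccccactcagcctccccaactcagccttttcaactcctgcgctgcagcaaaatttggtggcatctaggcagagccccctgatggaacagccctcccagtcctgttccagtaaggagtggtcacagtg
Kcnip3: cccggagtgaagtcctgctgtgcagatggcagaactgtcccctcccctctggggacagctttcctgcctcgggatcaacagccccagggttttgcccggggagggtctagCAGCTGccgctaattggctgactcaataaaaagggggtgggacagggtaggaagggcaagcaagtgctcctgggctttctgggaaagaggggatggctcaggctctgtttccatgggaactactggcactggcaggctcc
Kcna7: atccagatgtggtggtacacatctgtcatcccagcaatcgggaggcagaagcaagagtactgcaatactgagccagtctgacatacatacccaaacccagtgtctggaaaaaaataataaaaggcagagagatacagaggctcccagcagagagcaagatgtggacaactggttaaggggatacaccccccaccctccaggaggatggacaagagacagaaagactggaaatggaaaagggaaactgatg
Kcnj12: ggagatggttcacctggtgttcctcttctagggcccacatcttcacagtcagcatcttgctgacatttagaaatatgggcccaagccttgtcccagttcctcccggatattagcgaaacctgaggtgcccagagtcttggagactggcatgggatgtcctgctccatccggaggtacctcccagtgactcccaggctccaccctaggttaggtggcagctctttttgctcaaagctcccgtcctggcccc

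Among the voltage-gated subunits, 3 of 16 tested genes were lower and 0 were higher, against 13.1% and 11.2% of all genes. The lower genes were Kcnc1, a subunit of fast-closing Kv3 channels, and Kcna7 and Kcna6, subunits of Shaker-type Kv1 channels. The Kcna7 probe (chr7:52666474-52666533, mm9) read 13.03, 13.33, 13.31 and 12.82 in the WT mice and 10.63, 11.11 and 11.87 in the AR113Q mice. Every AR113Q value was under every WT value, and AR113Q replicate 3 lay nearest to WT. The log2 fold change was -1.92 ± 0.29 (SE, limma adjusted p = 0.00151), or 3.78-fold lower, and it was -1.05 with the mean over its probes. The Kcnc1 probe (chr7:53688622-53688681, mm9) read 9.44, 10.02, 9.59 and 9.11 in the WT mice and 6.91, 6.88 and 8.70 in the AR113Q mice. The genotypes did not overlap, but AR113Q replicate 3 was less than 1 log2 unit under the lowest WT mouse while the other two were more than 2 units under it. Its log2 fold change was -2.04 ± 0.45 (SE, limma adjusted p = 0.00765). It was -2.64 without AR113Q replicate 3 and -1.24 with the authors' normalized values. The Kcna6 probe (chr6:126658424-126658483, mm9) read 6.01, 6.65, 6.85 and 6.64 in the WT mice and 5.31, 5.32 and 4.79 in the AR113Q mice, and here AR113Q replicate 3 was the lowest of all. Its log2 fold change was -1.40 ± 0.24 (SE, limma adjusted p = 0.00264). The Kcna6 call ended with normexp background correction (-0.56), with the authors' normalized values (-0.35) and with the mean over its probes (-0.77).

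Kcnq1 and Kcna4 passed the adjusted p but not the fold. Kcnq1, the pore of slow delayed rectifiers, had a log2 fold change of -0.97 ± 0.19 (SE, limma adjusted p = 0.00462), just inside the fold threshold, and the values of the genotypes did not overlap. It was called lower in 8 of 22 alternatives, among them 75th percentile scaling (-1.23) and the mean over its probes (-1.14), and was at -0.13 with the authors' normalized values. Kcna4, an A-type Kv1 subunit, read 8.61, 8.45, 8.13 and 8.30 in the WT mice and 7.23, 7.75 and 7.57 in the AR113Q mice, again without overlap, with -0.86 ± 0.19 (SE, limma adjusted p = 0.00749). The other 11 voltage-gated genes missed the adjusted p. Kcnc4, a Kv3 subunit of muscle, had an interval of -0.73 to 0.43. Kcna1 (0.67 ± 0.28 (SE, limma adjusted p = 0.0883)) lay above 0 and Kcna5 (-0.63 ± 0.27 (SE, limma adjusted p = 0.0993)) and Kcnq5 (-1.11 ± 0.51 (SE, limma adjusted p = 0.116)) under it. Of Kcnq5, AR113Q replicates 1 and 2 read 3.17 and 4.66, under all WT mice, and AR113Q replicate 3 read 5.36, among them; without AR113Q replicate 3 the gene was called lower (-1.59). Kcnd1, Kcnd3, Kcnh3 and Kcnh4 had log2 fold changes between 0.0044 and 0.43.

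Of the 3 modifier subunits tested, 2 were lower, against 13.1% of all genes. Kcnf1 (chr12:17179527-17179586, mm9) read 6.57, 4.16, 8.15 and 7.29 in the WT mice and 1.61, 1.95 and 1.62 in the AR113Q mice. It was well above background on all 4 WT arrays and on 0 of 3 AR113Q arrays, so only an approximate bound can be given. Taken against the lowest signal well above background on each AR113Q array, the gene was 7.59-fold lower. Some probes with a higher signal than that were still not well above background, so the bound is not strict. The mean was 6.54 in WT and 1.73 in AR113Q (limma adjusted p = 0.00236), the gene passed the filter only through WT, and the WT mice themselves spread over almost 4 log2 units, with WT replicate 2 the lowest. Kcng4 (chr8:122148827-122148886, mm9), whose promoter window is printed above, read 8.83, 8.35, 8.72 and 8.14 in the WT mice and 3.63, 4.12 and 6.65 in the AR113Q mice. AR113Q replicates 1 and 2 were more than 4 log2 units under every WT mouse and AR113Q replicate 3 lay between them and WT, and 2 of the 3 AR113Q arrays were well above background. Its log2 fold change was -3.71 ± 0.64 (SE, limma adjusted p = 0.00272), or 13.1-fold lower. Kcns3 was not called, at 0.52 ± 0.41 (SE, limma adjusted p = 0.333). Without AR113Q replicate 3 the log2 fold change of Kcng4 was -4.64. With normexp background correction Kcng4 was at -1.68, and on the authors' normalized values it was at -1.23 and called, while Kcnf1 was not called (-0.79).

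Of 6 inward rectifiers tested, 2 were lower and 0 were higher, against 13.1% and 11.2% of all genes. Kcnj12, a Kir2 subunit of the resting potassium conductance, read 10.96, 11.05, 10.66 and 10.95 in the WT mice and 6.83, 8.41 and 9.37 in the AR113Q mice (chr11:60884556-60884615, mm9). The WT mice lay within 1 log2 unit of one another, the AR113Q mice spread over more than 2 units, and all of the latter were lower. The log2 fold change was -2.70 ± 0.51 (SE, limma adjusted p = 0.00387), or 6.51-fold lower. Without AR113Q replicate 1 it was -2.02, without AR113Q replicate 3 it was -3.29, and on the authors' normalized values it was -2.03, and the gene was called in each case. Kcnj8, the Kir6.1 pore of ATP-sensitive channels of vascular smooth muscle and pericytes, read 7.57, 7.42, 7.45 and 7.28 in the WT mice and 6.32, 6.05 and 5.18 in the AR113Q mice (chr6:142513487-142513546, mm9), with -1.58 ± 0.27 (SE, limma adjusted p = 0.00236). Its call ended with normexp background correction (-0.86) and with the authors' normalized values (-0.61). Of 8 vascular smooth muscle and pericyte markers, 1 (Cspg4) was lower and 0 were higher, and their mean log2 level was 10.02 to 10.11 in WT and 9.25 to 10.06 in AR113Q. Their part in the Kcnj8 difference was not tested. In bulk RNA, fewer cells of a type and less RNA per cell cannot be told apart.

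Kcnj11, the Kir6.2 pore of the ATP-sensitive channel of muscle fibers, read 9.64, 8.87, 9.04 and 9.70 in the WT mice and 8.46, 8.60 and 8.58 in the AR113Q mice, without overlap, and its log2 fold change of -0.77 ± 0.23 (SE, limma adjusted p = 0.0293) was under the fold threshold. Kcnj2, the Kir2.1 subunit whose loss causes periodic paralysis, read 6.12, 5.70, 6.40 and 6.01 in the WT mice and 6.75, 6.42 and 7.03 in the AR113Q mice, with the AR113Q mice all above the WT mice, and the log2 fold change was 0.68 ± 0.22 (SE, limma adjusted p = 0.036), under the fold threshold. Kcnj13, the Kir7.1 subunit, stood at 0.99 ± 0.25 (SE, limma adjusted p = 0.0135), just inside that threshold, again without overlap. It was called higher in 5 of 23 alternatives, among them those without WT replicate 2, AR113Q replicate 1 and AR113Q replicate 2. Kcnj15 did not pass the adjusted p, at 0.38 ± 0.45 (SE, limma adjusted p = 0.524).

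Of 5 2-pore-domain channels tested, which carry background potassium current, 1 was higher and 0 were lower, against 11.2% and 13.1% of all genes. Kcnk1, the TWIK-1 channel, had the largest increase of the channel genes. It read 3.86, 4.80, 4.92 and 3.65 in the WT mice and 7.02, 6.22 and 8.35 in the AR113Q mice (chr8:128554281-128554340, mm9). The probe was well above background on 2 of 4 WT arrays and on all 3 AR113Q arrays, and the lowest AR113Q mouse was more than 1 log2 unit above the highest WT mouse. The log2 fold change was 2.89 ± 0.52 (SE, limma adjusted p = 0.00323), or 7.4-fold higher. With normexp background correction it was 1.09, and the gene was still called. Kcnk3, the acid-sensitive TASK-1 channel, was at 4.82, 4.58, 4.84 and 4.99 in the WT mice and 5.26, 2.30 and 2.49 in the AR113Q mice. Its AR113Q replicate 1 was above the WT mice and the other two more than 2 units under them, and it was not called (-1.46 ± 0.64 (SE, limma adjusted p = 0.102)). Kcnk4, Kcnk6 and Kcnk13 had log2 fold changes between -0.34 and 0.39 and were not called.

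Of 5 tested subunits grouped by symbol as calcium- or sodium-activated, 1 was lower and 1 higher, against 13.1% and 11.2% of all genes. Kcnn2, the SK2 channel, read 6.58, 7.08, 7.36 and 6.27 in the WT mice and 3.26, 4.45 and 6.67 in the AR113Q mice. AR113Q replicate 3 lay within the WT range and the others far under it. The log2 fold change was -2.03 ± 0.70 (SE, limma adjusted p = 0.0467). It was the only called channel gene whose genotypes overlapped, and it lost the call in 11 of 22 alternatives, among them the omission of any 1 array other than AR113Q replicate 3. Without AR113Q replicate 1 its log2 fold change was -1.27 and without AR113Q replicate 3 it was -2.97. Kcnt2, a sodium-activated channel, read 3.23, 2.97, 3.78 and 3.82 in the WT mice and 5.27, 4.62 and 4.93 in the AR113Q mice (chr1:142506210-142506269, mm9). It was well above background on 0 of 4 WT arrays and on all 3 AR113Q arrays. Against the lowest signal well above background on each WT array it was 2.18-fold higher, an approximate bound. The mean was 3.45 in WT and 4.94 in AR113Q (limma adjusted p = 0.00289), the gene passed the filter only through AR113Q, and the call ended with normexp background correction (0.26). Kcnma1, the large-conductance BK channel, read 9.62, 9.27, 9.21 and 9.35 in the WT mice and 8.22, 9.32 and 9.13 in the AR113Q mice and was not called, with an interval of -1.09 to 0.15. Kcnn4 and Kcnu1 were not called, at -0.42 and -0.24, and Kcnu1 was placed in this group by its symbol and not by what activates it.

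Auxiliary subunits gave 2 lower and 1 higher of 5, against 13.1% and 11.2% of all genes. Kcnab1, a cytoplasmic beta subunit that speeds the inactivation of Kv1 channels, had the lowest adjusted p of the channel genes. It read 7.59, 7.68, 8.43 and 8.20 in the WT mice and 5.76, 6.22 and 5.11 in the AR113Q mice (chr3:65181718-65181777, mm9), with no overlap and with AR113Q replicate 3 the lowest. The log2 fold change was -2.28 ± 0.31 (SE, limma adjusted p = 0.000984), or 4.86-fold lower. With normexp background correction it was -1.17, and on the authors' normalized values it was -0.84 and not called. Kcne3, a single-pass subunit, read 5.85, 6.00, 6.22 and 5.66 in the WT mice and 4.62, 5.23 and 4.67 in the AR113Q mice (chr7:107332867-107332926, mm9), with -1.09 ± 0.21 (SE, limma adjusted p = 0.00443). It lay closest outside the fold threshold, and it lost the call in 7 of 22 alternatives, among them normexp background correction (-0.38), the authors' normalized values (-0.22) and the omission of AR113Q replicate 1 (-0.98) or WT replicate 3 (-0.999). Kcnip3, also known as DREAM, a calcium-binding protein that joins Kv4 channels and represses transcription, read 5.75, 6.62, 6.00 and 5.72 in the WT mice and 7.14, 7.90 and 7.17 in the AR113Q mice (chr2:127282242-127282301, mm9). The AR113Q mice were all above the WT mice, and the log2 fold change was 1.38 ± 0.28 (SE, limma adjusted p = 0.00571). Its call ended with normexp background correction (0.73) and with the authors' normalized values (0.51). Kcne4 (0.88) and Kcnip2 (0.64) were not called; Kcne4 was called higher without AR113Q replicate 2 (1.28) and without WT replicate 3 (1.10).

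**Figure D3:**
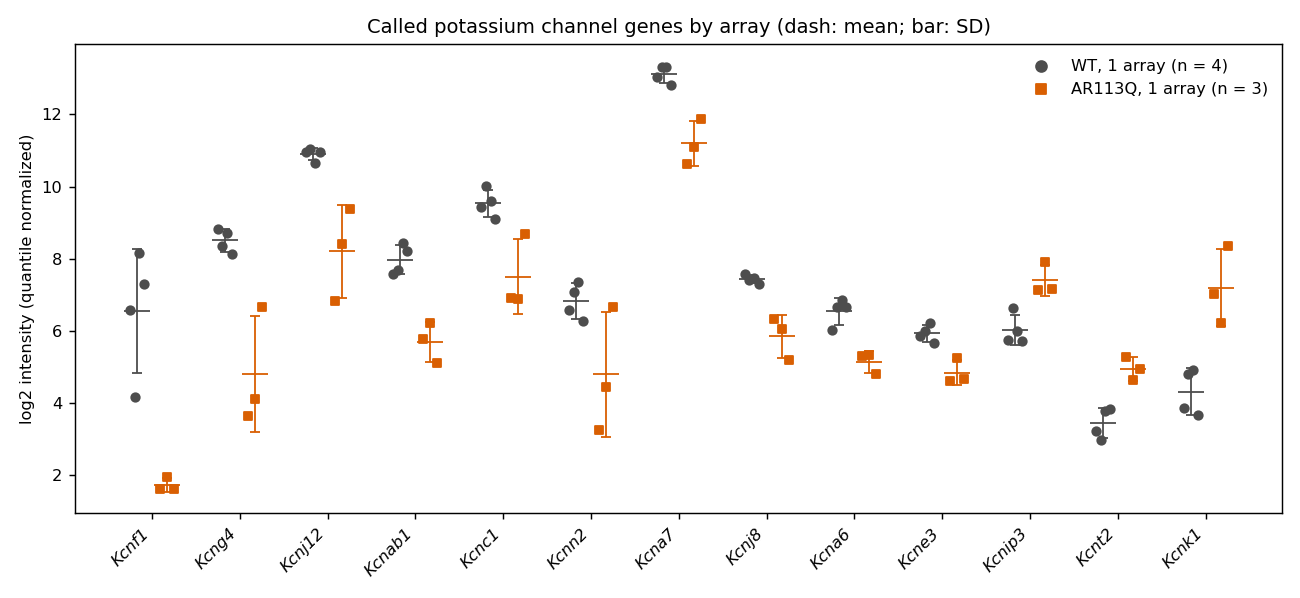
Log2 intensity of the 13 called potassium channel genes on each array, with WT mice as grey circles (n = 4) and AR113Q mice as orange squares (n = 3, in the order of replicates 1, 2 and 3), the mean as a dash and the SD as a bar. The genotypes overlap for Kcnn2 only, and AR113Q replicate 3 lies nearest to WT for Kcng4, Kcnj12, Kcnc1, Kcnn2 and Kcna7.

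The AR113Q mice did not rank alike across the lower genes. AR113Q replicate 3 was the highest of its genotype for Kcng4, Kcnj12, Kcnc1, Kcnn2 and Kcna7 and the lowest for Kcnab1, Kcnj8 and Kcna6. The slow myosin gene Myh7 varied within both genotypes and was high in the same mouse: 4.95, 12.56, 11.89 and 6.66 in the WT mice and 6.66, 6.22 and 13.59 in the AR113Q mice. Myh2, the fast oxidative myosin, read 11.68, 14.75, 14.82 and 11.27 in the WT mice and 12.10, 12.14 and 15.92 in the AR113Q mice. The part of fiber composition in the values of AR113Q replicate 3 was not tested. On slide 2, the slide with both genotypes, the differences of the 10 lower genes were -4.72 to -1.10 on the log2 scale and those of the 3 higher genes 0.52 to 2.29. Both arrays were part of the calls, and for the 12 called genes without overlap the direction on this slide was already fixed. With slide as a fixed effect, the comparison rests wholly on those 2 arrays and gives the same differences as slide 2 alone. Only WT replicates 3 and 4, which share slide 4, then inform the residual spread. In that fit, 0 of 40 channel genes and 0 of 16577 genes were called by limma, with 18 channel genes and 6200 genes with an unadjusted p under 0.05. With so little replication, these counts cannot tell a slide effect from a genotype difference.

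Probes of the same gene did not always give the same result. Of the 40 genes, 11 had more than 1 probe above background, and the one with the highest mean stood for the gene. All 3 Kcnc1 probes were called lower, at -2.04, -2.29 and -3.64 on the log2 scale, as were both Kcne3 probes (-1.09 and -1.43). Both Kcnf1 probes were called lower too, but both were well above background on 0 of 3 AR113Q arrays. Their approximate bounds were 7.59-fold and 4.70-fold lower. Neither of the Kcnj11 probes (-0.77 and -0.67) nor of the Kcnj13 probes (0.99 and 0.86) reached the fold threshold. The probes were called differently for 4 genes. For Kcna7, the probe at chr7:52664902-52664961 (mm9) had a log2 fold change of -0.17 ± 0.22 (SE), 7.65 in WT and 7.48 in AR113Q, whereas the one that stands for the gene fell by 1.92. For Kcna6 the second probe, which has no genome position on the array, was at -0.15 ± 0.19 against -1.40. For Kcna5 the second probe, at chr6:126482573-126482632 (mm9), was called lower at -2.54 ± 0.60 (limma adjusted p over all probes = 0.0105) while the probe that stands for the gene was at -0.63. With the mean over its probes Kcna5 was called lower (-1.59). For Kcnq1 the 2 probes lie 9 bases apart and were at -0.97 and -1.30, to either side of the fold threshold. Of 4 Kcnma1 probes, 3 were between -0.52 and -0.46 and 1 was at 0.48, and none was called. Which transcript forms these probes detect was not analysed here.

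**Figure D4:**
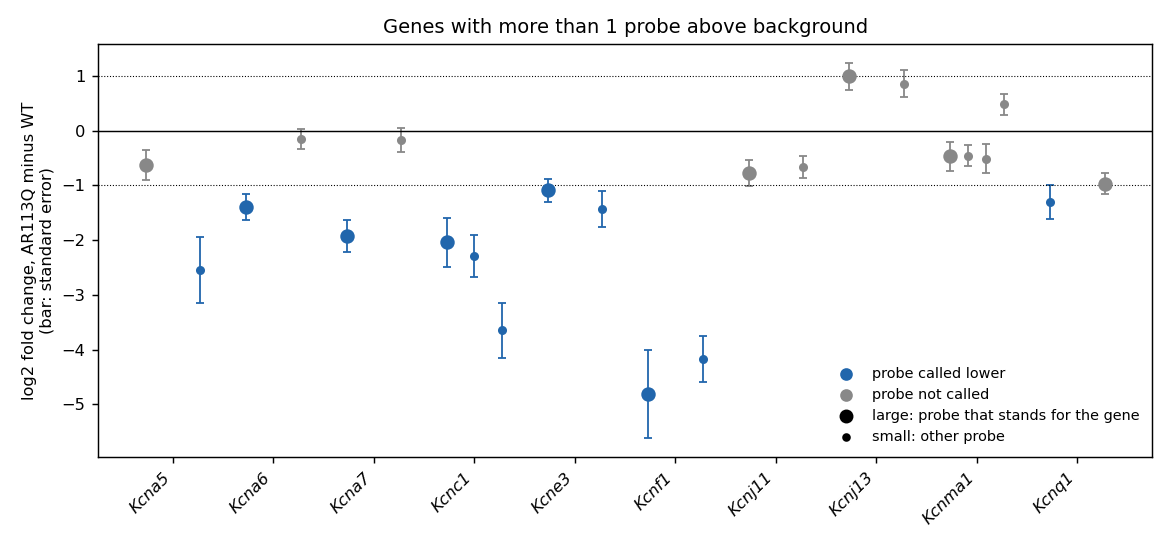
Log2 fold change (AR113Q minus WT) with its standard error for each probe above background of 10 of the 11 genes with more than 1 such probe. Large points are the probe that stands for the gene, small points its other probes, blue points are called lower and grey points not called; the probes of Kcna5, Kcna6 and Kcna7 lie far apart, and those of Kcnc1 and Kcnf1 are all called lower.

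Genes below the detection filter gave a few further values. Without the filter, 92 channel genes were tested among 31131 genes, and 10 were lower and 4 higher, against 6.82% and 6.11% of all genes. These included 12 of the 13 genes called above, all but Kcnn2, and 2 others. Kcnip4, another Kv4 partner, was well above background on 2 WT arrays and 0 AR113Q arrays, with 4.50, 3.28, 3.11 and 3.94 in WT and 1.58, 1.48 and 1.55 in AR113Q. Kcns1, a modifier subunit, was well above background on 1 AR113Q array only and had 1.86, 1.69, 1.80 and 1.81 in WT and 3.43, 3.40 and 2.35 in AR113Q. At this level the values are mostly background, and their order is no more than a description. Kcnh2, the ERG1 channel, was detected on 2 WT arrays and 0 AR113Q arrays, and Kcnt1, the other sodium-activated channel, on 0 WT arrays and 2 AR113Q arrays. Kcnn3, the SK3 channel, known for its rise after denervation, was detected on 1 array of each genotype, with 3.19, 3.65, 3.27 and 2.62 in WT and 3.14, 2.11 and 4.10 in AR113Q.

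Channel partners that the symbol rule leaves out were taken from a list of 21 genes, of which 13 were tested. Of these, 3 were higher and 2 lower, against 11.2% and 13.1% of all genes, and the median log2 fold change was -0.29. Lrrc38, which shifts BK channel activation, read 11.05, 10.32, 10.15 and 10.08 in the WT mice and 6.11, 6.66 and 6.38 in the AR113Q mice, with -4.02 ± 0.26 (SE, limma adjusted p = 8.25e-05). It was -2.74 with normexp background correction and -2.39 with the authors' normalized values. Hcn2, a hyperpolarization-activated channel that also passes potassium, was lower (-1.80 ± 0.31 (SE, limma adjusted p = 0.00264)), but with the mean over its probes it was at -0.90 and not called. Abcc8, a sulfonylurea receptor that joins Kir6.2, was higher (1.09 ± 0.26 (SE, limma adjusted p = 0.0117)), while Abcc9, the receptor that joins Kir6.1 and Kir6.2 in muscle, was at -0.55 ± 0.16 (SE, limma adjusted p = 0.0267), under the fold threshold. Tmem38b, a potassium-permeable channel of the endoplasmic reticulum, was higher (1.32 ± 0.35 (SE, limma adjusted p = 0.017)), and Tmem38a, its counterpart in the sarcoplasmic reticulum of muscle, was at -0.64 ± 0.17 (SE, limma adjusted p = 0.0159), also under the fold threshold. Kcnrg, a regulator of Kv channel assembly, was higher (1.54 ± 0.38 (SE, limma adjusted p = 0.0129)) and was well above background on 1 WT array and all 3 AR113Q arrays. With the replicate block Kcnrg was not called (1.55, limma adjusted p = 0.0522). None of the 3 increases was called with normexp background correction (0.81 for Abcc8, 0.72 for Tmem38b and 0.25 for Kcnrg). With the authors' normalized values Abcc8 (0.76) and Tmem38b (0.54) were not called, and Kcnrg could not be tested. Abcc8 also lost the call without WT replicate 2 (0.988) and without AR113Q replicate 1 (0.84), and Tmem38b without AR113Q replicate 1 (0.87).

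Pumps and cotransporters that move potassium across the membrane were a second list, with 19 of 21 genes tested. Of these, 5 were lower and 1 higher, against 13.1% and 11.2% of all genes, and the median log2 fold change was -0.16. Of the 4 beta subunit family genes of the sodium-potassium pump, all tested, 3 were lower, and Atp1b3 was not called (0.29 ± 0.17 (SE, limma adjusted p = 0.198)). Atp1b1 read 9.996, 11.54, 11.43 and 10.78 in the WT mice and 7.30, 7.96 and 10.11 in the AR113Q mice, with AR113Q replicate 3 nearest to WT, and its log2 fold change was -2.48 ± 0.66 (SE, limma adjusted p = 0.0172). It lost the call without AR113Q replicate 1 (-1.90), without AR113Q replicate 2 (-2.23) and with no filter on dim probes. Without AR113Q replicate 3 it was -3.30. Atp1b4, a member of that family known in placental mammals as a nuclear membrane protein of muscle, was at -2.77 ± 0.65 (SE, limma adjusted p = 0.0101, well above background on 2 of 3 AR113Q arrays) and Atp1b2 at -1.40 ± 0.28 (SE, limma adjusted p = 0.0047). Atp1a4, a catalytic subunit best known from sperm, was well above background on all 4 WT arrays and on 0 of 3 AR113Q arrays. It passed the filter only through WT, and its approximate bound was 2.49-fold lower. The gene is counted among the 5 lower genes (limma adjusted p = 0.000708), although its AR113Q values were not well above background. Fxyd2, a pump regulator, was lower (-2.16 ± 0.24 (SE, limma adjusted p = 0.000479)). Fxyd7 was higher (1.09 ± 0.27 (SE, limma adjusted p = 0.0132)), but it was well above background on only 1 WT array and 2 AR113Q arrays. It lost the call with 75th percentile scaling (0.83), with normexp background correction (0.27) without AR113Q replicate 2 (0.93) and without WT replicate 3 (0.993), and could not be tested with the authors' normalized values. Atp1b4 was at -1.83 without AR113Q replicate 1 and at -3.43 without AR113Q replicate 3. The calls of Atp1a4 and Atp1b4 ended with normexp background correction (-0.47 and -0.80) and with the authors' normalized values (-0.23 and -0.46).

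**Figure D5:**
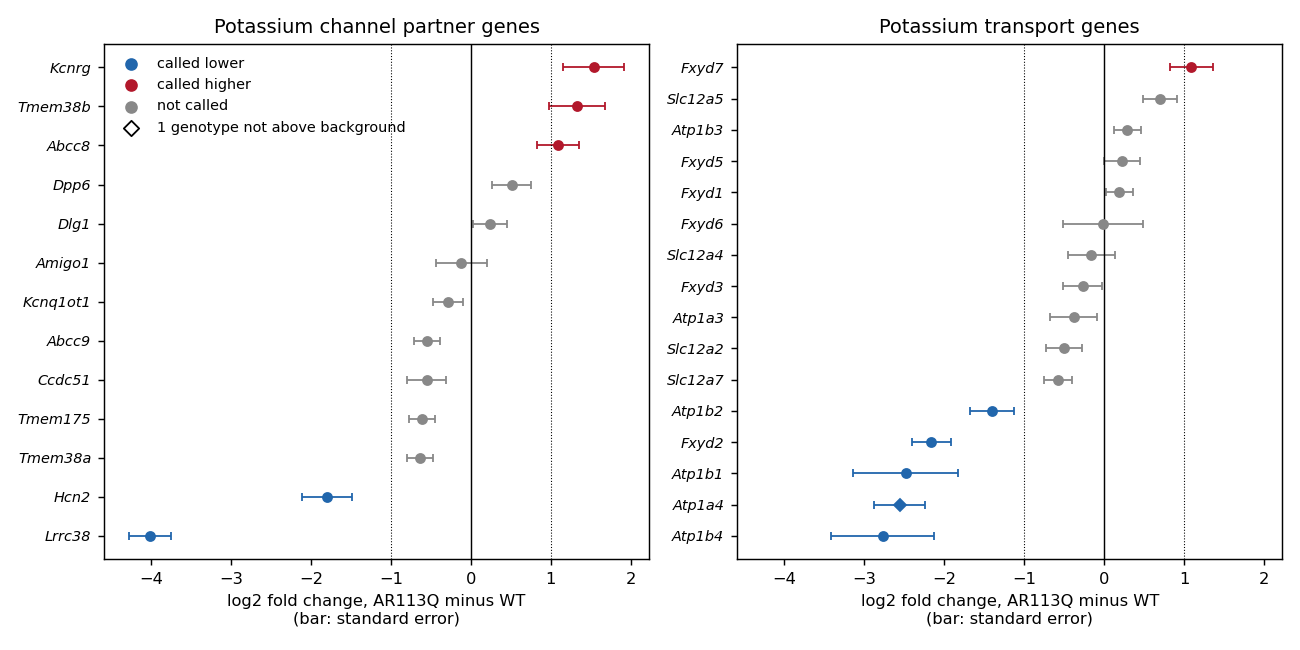
Log2 fold change (AR113Q minus WT) with its standard error for the tested channel partner genes (left, 13 genes) and potassium transport genes (right, 16 of 19 genes). Blue points are called lower, red points called higher and grey points not called, and the diamond marks Atp1a4, drawn at its fitted value although only a bound can be given; Lrrc38 lies lowest on the left, and the 5 lower genes on the right include 3 of the 4 beta subunit family genes of the sodium-potassium pump.

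Some markers of other cells and states differed between the genotypes as well. The counts below stand against 11.2% of all genes tested called higher and 13.1% called lower. Of 6 tested genes of denervated fibers, 3 were higher. Runx1 read 4.37, 4.998, 4.99 and 5.10 in the WT mice and 10.89, 9.79 and 10.76 in the AR113Q mice, with 5.62 ± 0.30 (SE, limma adjusted p = 5.03e-05), and the others were Gadd45a (2.39) and Chrna1 (1.77). Ncam1 was at -0.68 ± 0.23 (SE, limma adjusted p = 0.0411), under the fold threshold and without overlap, and Myog (-0.20) was not called. The mean log2 level of the denervation list was 7.05 to 7.24 in WT and 8.48 to 8.86 in AR113Q, and Chrng was not above background. Fibroblast markers were lower for 3 of 5 genes, with a mean level of 12.4 to 12.8 in WT and 9.75 to 11.1 in AR113Q. Macrophage markers were lower for 3 of 5 genes and higher for 1, adipocyte markers lower for 2 of 4 and Schwann cell markers lower for 2 of 5. The Schwann cell list had a mean level of 6.94 to 7.76 in WT and 6.64 to 6.90 in AR113Q. Endothelial markers were lower for 1 of 5, and 0 tested genes of the erythrocyte (3 of 3 tested), T cell (2 of 4) and satellite cell (2 of 3) lists were called. The part of these cells and states in the channel gene differences was not tested.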

How the data were processed

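Cy3-labelled quadriceps RNA of 4 WT and 3 AR113Q mice was hybridized to Agilent arrays, and genotypes and replicate numbers were taken from the sample titles. The authors extracted the spots with Agilent Feature Extraction 10.7.3.1 (version from the submitters' processing notes), and in the deposited scanner files each spot has an intensity after background subtraction, without any scaling across arrays. A second deposited table gives log2 values after quantile normalization, according to the methods. The background treatment changed the calls of some dim probes.

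Here log2 intensities were taken, spots marked as outliers and control spots were left out, arrays were quantile normalized and spots of a probe were averaged. A probe was kept if 3 or more of the 7 arrays had at least 0.5 of its spots marked as well above background. The kept probe with the highest mean stood for its gene. The genotype difference was fitted with lmFit and eBayes of limma 3.58.1 under R 4.3.3, and p-values were adjusted over every gene tested by the Benjamini-Hochberg method. No depth applies to arrays, whose number limits the precision.

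Potassium channel genes were found by symbol. Through RefSeq accessions (GRCm38.p6), 128 of their 130 probes could be looked up, and 0 named another gene; 2 probes of Kcnj14, which was not tested, are placed on another chromosome than the gene. Probe positions are on mm9, promoter windows on GRCm38.p6, and exon annotation of mm9 was not used here. Genes were named if they were called, belonged to the skeletal muscle list, lay nearest to a threshold on either side (2 genes each), had probes called differently or were not above background in 1 genotype; the other genes named were chosen after their values were seen. The values of a few genes are not reported here, although they count in the totals. The members and all lists were chosen with earlier results of these data known.

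The fit was tested on simulated data. Alternative settings were a 75th percentile scaling, normexp with an offset of 50, the authors' log2 values, no filter or a filter on all 7 arrays, the mean over probes, each probe by itself, outlier spots kept, an intensity trend, slide as a random or fixed effect, slide 2 alone, a replicate block, array weights, no fold threshold and each array left out. A further setting, the mean spot intensity with no background subtracted, was chosen after seeing the data.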

Additional observations from a re-analysis of the deposited data

Results flagged for a closer look

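Kcnk13, a 2-pore-domain channel, was 5.54 in WT replicate 3, and the nearest other WT mouse was at 6.56, a gap of 0.893 of the range of the 4 WT mice, above the critical value of Dixon's test at the 95% level. It was the only one of 40 channel genes with a WT mouse that far from the others, and chance alone gives about 1 in 20. The gene was not called. Among the 32 partner and transport genes, Atp1b2 was the only one, with WT replicate 4 at 11.4 and the nearest other WT mouse at 11.2, a gap of 0.940 of the range.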

How the results depend on the processing

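For the 12 called channel genes whose genotypes do not overlap, the direction could not change with an array left out or within slide 2. For the channel genes, 3 were higher, 10 were lower and the median log2 fold change was -0.19 as reported. With normexp background correction, 1 was higher, 6 lower and the median -0.0684, and 7 of the 13 genes remained called. With the authors' normalized values, where 31 channel genes could be tested, 0 were higher (limma, 15 genes with an unadjusted p under 0.05), 4 lower and the median -0.13, and 4 of the 13 remained. Kcnk1 and Kcnt2, both called higher as reported, could not be tested with those values. With the mean spot intensity, chosen after seeing the data, 1 was higher, 6 lower and the median -0.0926, and 7 of the 13 remained called. With the filter on all 7 arrays, 20 genes were tested, 1 was higher, 6 lower and the median -0.41. With no filter the median was -0.0670, with 75th percentile scaling -0.35, with each probe tested by itself -0.39 and on slide 2 alone -0.41. Scaling to the 75th percentile moved the median of all genes to -0.08 and their split to 1735 higher and 2411 lower, against 1852 and 2178. With slide as a fixed effect, which gives the same differences as slide 2 alone, 0 were higher, 0 lower and the median -0.41. The lowest limma adjusted p of all genes was then 0.0523. With no fold threshold, 5 channel genes were higher and 13 lower. Leaving out each array in turn gave 3 to 5 higher genes (5 without AR113Q replicate 2), 8 to 11 lower genes and a median of -0.27 to -0.18.

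Among partner genes, the number higher, 3 as reported, was 0 with normexp background correction, 0 with the authors' normalized values (11 genes tested), 0 with the mean spot intensity, 0 with slide as a fixed effect and 1 to 3 with an array left out (1 without AR113Q replicate 1). It was 2 with the replicate block and 2 with the filter on all 7 arrays. The number lower, 2 as reported, was 1 with the mean over a gene's probes, 0 with slide as a fixed effect and 5 with no fold threshold. Among transport genes, the number higher, 1 as reported, was 0 with 75th percentile scaling, normexp, the authors' normalized values, the filter on all 7 arrays, slide as a fixed effect or the mean spot intensity, 3 with the mean over a gene's probes, 3 with no fold threshold and 0 to 2 with an array left out (0 without WT replicate 3, 2 without WT replicate 1 or AR113Q replicate 3). The number lower, 5 as reported, was 3 with normexp, the authors' normalized values, the filter on all 7 arrays or the mean spot intensity, 4 with no filter, 0 with slide as a fixed effect and 4 to 5 with an array left out (4 without AR113Q replicate 1 or 2). Over all genes, 4030 were called as reported, 1763 with normexp, 1365 with the authors' normalized values, 1904 with the mean spot intensity and 7229 with no fold threshold.

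Kcnc4 (-0.15) was 0.62 with slide as a fixed effect and -0.38 to 0.0455 with an array left out, the latter without AR113Q replicate 3. It was called in neither case. Same-numbered mice deviated with correlations of 0.037, -0.022 and 0.156, so the numbers do not pair the mice, and the replicate block gave 3 higher and 11 lower channel genes and a median of -0.18. The causes of these changes were not tested, except where an alternative tests fewer genes or arrays by its construction. The 3 AR113Q mice and the low signal of many channel probes limit every call.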
